A study of Mus musculus with 17 samples.

Results

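The 10 receptor tyrosine kinase genes described here are the matrix receptors Ddr1 and Ddr2, the fibroblast growth factor receptors Fgfr1, Fgfr2 and Fgfr3, the related receptors Met and Mst1r, and Axl, Igf1r and Epha2, followed across 17 mouse mammary tumours. They were taken by name, and all 10 were measured among 12393 genes, each by its brightest probe set on average across the 17 arrays. The tumours came from FVB mice of the MMTV-Myc T58A model. The MMTV promoter is active chiefly in mammary epithelium, and T58A names a mutation in the transgenic transcription factor Myc. Every tumour carries the label for low expression of this mutant Myc, and the groups differ by histology: 6 EMT tumours (epithelial to mesenchymal transition), 1 Papillary tumour, 1 Microacinar tumour and 9 Squamous tumours. No normal gland and no tumour without the transgene was analysed here, and ages were not given in the sources used here. A number after a label, as in EMT 4, is only a name for that tumour.

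Receptor tyrosine kinases span the cell membrane, bind a ligand outside the cell and phosphorylate tyrosines on themselves and on adaptor proteins inside it, which feeds the Ras-MAPK and PI3K pathways. In the mammary gland, Fgfr2 serves ductal epithelium as a receptor for FGFs made by the stroma, Ddr1 is the collagen receptor of epithelial cells, and Ddr2 is the collagen receptor of mesenchymal cells. Met binds hepatocyte growth factor, which fibroblasts secrete, and Axl binds Gas6 and is found on mesenchymal cells, macrophages and some carcinoma cells.

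Values are log2 expression per gene as deposited, and fold changes are EMT minus Squamous on that scale from limma. The titles of 3 arrays (EMT 5, EMT 6 and Squamous 9) contain TM, and the other 14 are called numbered arrays here. The SD over probe sets was 2.46 to 2.51 on the TM arrays and 2.25 to 2.29 on the numbered arrays, and the model had a term for title format. Whether each tumour had its own animal is not in the labels, so p-values cover the spread among these tumours only, which may be partly technical. The number of arrays limits the precision. Myc itself ranged from 9.18 to 12.40 in EMT and from 9.79 to 12.29 in Squamous tumours (fold change −0.51, SE 0.53, limma adjusted p = 0.685); whether its probe set reads the transgene was not tested.

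The EMT and Squamous tumours are the pair of histologies with replicates, and the comparison asks which receptors differ between them. Ddr1, Fgfr2 and Fgfr3 had their lowest values in EMT 5 and EMT 6, and Axl and Ddr2 had their highest values in EMT 4, EMT 5 and EMT 6. EMT 1 and EMT 3 lay inside the Squamous range for all 5 of these genes. Mst1r, Epha2 and Met were highest in EMT 2. None of the 10 receptors passed the threshold of 0.05 on the limma adjusted p, which 0 of 12393 genes passed (0%). At an unadjusted p under 0.05 limma gave 4 of 10 receptors, beside 14.3% of all genes. Axl was the 1 higher receptor, beside 8.08% of all genes, and Ddr1, Fgfr2 and Fgfr3 were the 3 lower ones, beside 6.27%. The median fold change of the 10 receptors was 0.41, and that of all genes was 0.0064. Of all genes, 6417 had a positive and 5976 a negative fold change.

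**Figure D1:**
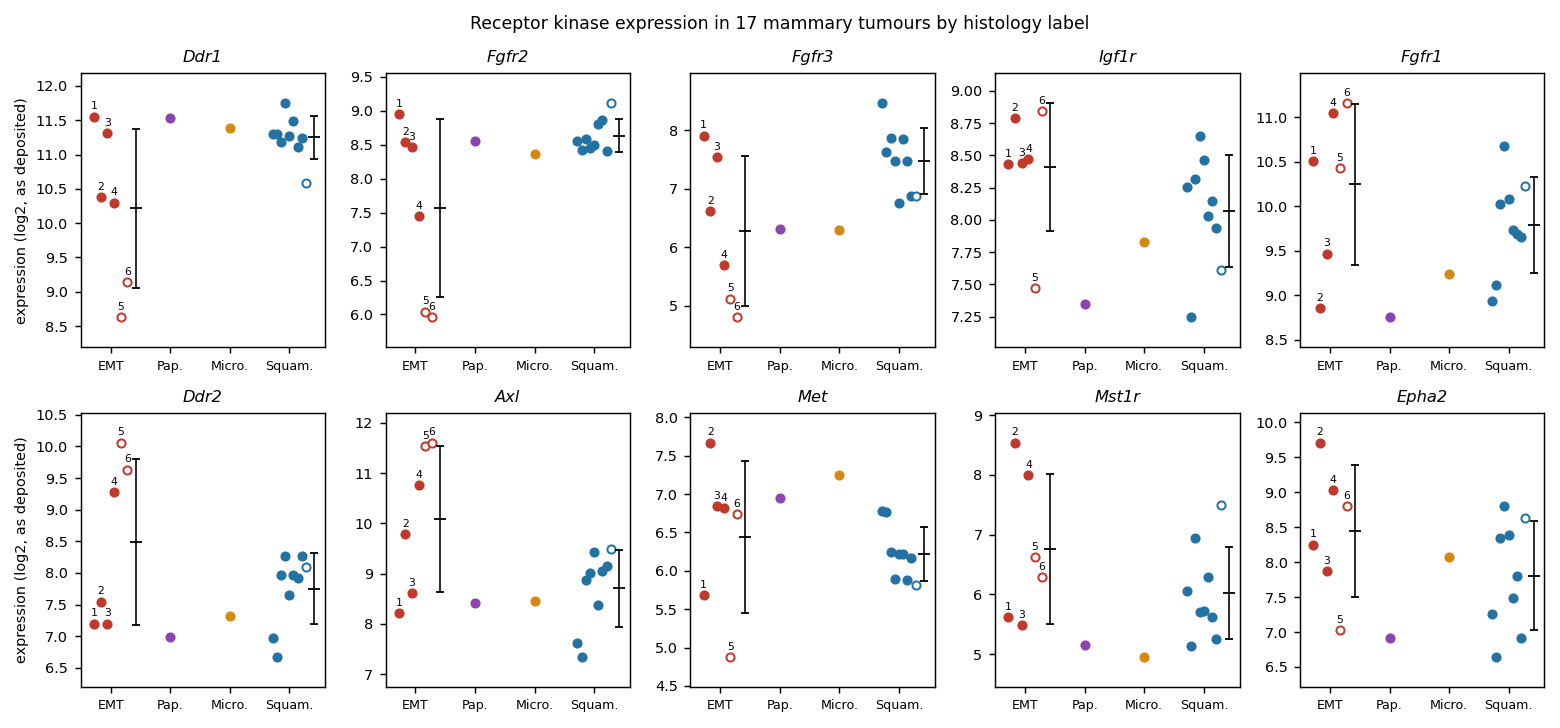
Log2 expression of each receptor (vertical axis, own range per panel) in EMT, Papillary, Microacinar and Squamous tumours; numbers beside EMT points are tumour numbers, open circles are TM arrays, and bars are the mean ± SD of EMT and of Squamous tumours. Ddr1, Fgfr2 and Fgfr3 are lowest in EMT 5 and EMT 6, and Axl and Ddr2 are highest in EMT 4, EMT 5 and EMT 6.

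The groups overlapped for every receptor. At least 3 of the 6 EMT tumours lay below the whole Squamous range for 3 receptors (Ddr1, Fgfr2 and Fgfr3), beside 11% of all genes. At least 3 of 6 lay above it for 3 others (Axl, Ddr2 and Met), beside 15.1% of all genes. Either side together gave 6 of 10 receptors, beside 26% of all genes. The EMT tumours also varied more among themselves than the Squamous tumours did. The SD over EMT tumours was above 2 times the SD over Squamous tumours for 5 of 10 receptors and for 2721 of 12393 genes, and the ratio was 5.47 for Fgfr2 and 3.72 for Ddr1.

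Ddr1 (chr17:35681567-35704741, in the mouse assembly GRCm38.p6, which is used for all positions here) encodes the collagen receptor of epithelia. It had 11.55 in EMT 1, 10.38 in EMT 2, 11.31 in EMT 3, 10.30 in EMT 4, 8.62 in EMT 5 and 9.14 in EMT 6. The Squamous tumours had a lowest Ddr1 value of 10.58 in Squamous 9, a median of 11.27 and a highest value of 11.75. EMT 2, EMT 4, EMT 5 and EMT 6 thus lay below every Squamous tumour, and EMT 1 and EMT 3 lay inside the Squamous range. Mean Ddr1 was 10.22 ± 1.16 over 6 EMT and 11.25 ± 0.31 over 9 Squamous tumours (± SD), for a fold change of −0.70 (SE 0.24, 95% interval −1.20 to −0.19, limma adjusted p = 0.238). Within the numbered arrays the Ddr1 fold change was −0.45, and on the TM arrays the mean of 2 EMT tumours minus the 1 Squamous tumour was −1.70. These are bulk tumours, in which fewer cells of a type and less RNA per cell cannot be told apart.

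Ddr1 had 8 probe sets, the most of any receptor here. The 4 brightest had fold changes of −0.70, −0.59, −0.46 and −0.28 in a fit over all probe sets, and each had its lowest value in EMT 5. The 4 dimmer ones gave −0.07, −0.11, −0.44 and −0.02. In the fifth by brightness, EMT 5 and EMT 6 lay above the Squamous mean, and Squamous 9, also a TM array, was highest at 7.54. In the sixth, EMT 6 and Squamous 9 shared the value 5.76, and in the eighth all 3 TM arrays shared 5.19. In probe sets 1, 2 and 3 by brightness Squamous 9 was the lowest Squamous tumour, at 10.58, 8.97 and 8.81. EMT 5 and EMT 6 lay below Squamous 9 in each of these. In probe set 7 Squamous 9 was again the lowest Squamous tumour, at 5.57. None of the 8 passed the adjusted threshold with limma.

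**Figure D2:**
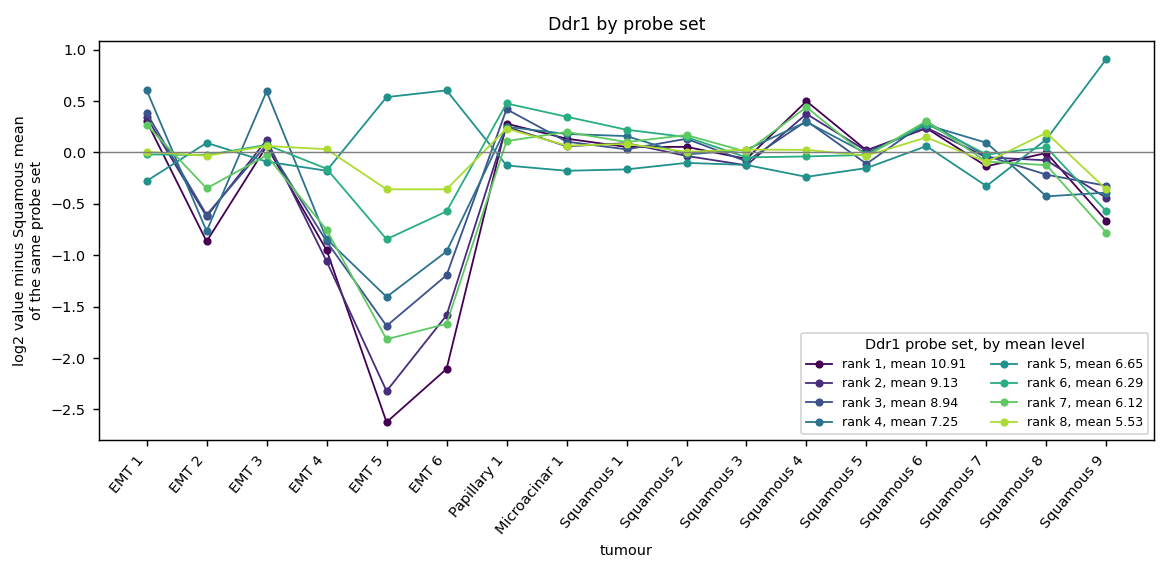
Log2 value of each of the 8 Ddr1 probe sets minus that probe set's own mean over the 9 Squamous tumours, by tumour. All but probe set 5 by brightness lie below 0 in EMT 5, in EMT 6 and in Squamous 9, the other TM array. Squamous 9 is the lowest Squamous tumour in all of these except probe set 4.

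Ddr2 (chr1:169972307-170110836) encodes the collagen receptor of fibroblasts and other mesenchymal cells. It had 7.20 in EMT 1, 7.55 in EMT 2, 7.20 in EMT 3, 9.28 in EMT 4, 10.06 in EMT 5 and 9.63 in EMT 6. In Squamous tumours Ddr2 had a lowest value of 6.67, a median of 7.96 and a highest value of 8.27. EMT 4, EMT 5 and EMT 6 exceeded all Squamous tumours, and the other EMT tumours lay within their range. Mean Ddr2 was 8.49 ± 1.31 over 6 EMT and 7.75 ± 0.56 over 9 Squamous tumours (± SD), for a fold change of 0.43 (SE 0.39, limma adjusted p = 0.642). The Ddr2 fold change was 0.10 within the numbered arrays, where EMT 4 is the only one of those 3 tumours left, and the TM difference was 1.75. Relative to the Squamous mean, EMT 5 had Ddr1 at −2.62 and Ddr2 at 2.31, and EMT 6 had Ddr1 at −2.11 and Ddr2 at 1.88.

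The collagen genes whose products activate these receptors had mostly positive fold changes. Of 10 collagen chain genes listed as ligands, 9 had a positive and 1 a negative fold change, beside 6417 positive and 5976 negative among all genes. The list median was 0.52, and 0 of the 10 passed the limma adjusted threshold in either direction or had an unadjusted p under 0.05. The median was 0.29 without EMT 4 and 0.06 with array weights. Col1a1, a chain of fibrillar collagen, had a mean of 13.20 ± 0.93 over 6 EMT and 12.44 ± 1.26 over 9 Squamous tumours (± SD), for a fold change of 0.63 (SE 0.60). Its direction differed between the sets of arrays, with 0.88 within the numbered arrays and a TM difference of −0.40. Col5a1 topped the list at 0.78 (SE 0.59), and Col4a1, a basement membrane collagen, had 0.37 (SE 0.30). Col10a1 was the one negative gene, at −0.28, and lay below the lower quartile of its array in 14 of 17 tumours.

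Fgfr2 (chr7:130162451-130266808) and Fgfr3 (chr5:33721724-33737068), FGF receptors with roles in epithelia, were lowest in the same EMT tumours. Fgfr2 had 8.95 in EMT 1, 8.54 in EMT 2, 8.46 in EMT 3, 7.45 in EMT 4, 6.04 in EMT 5 and 5.96 in EMT 6. The 9 Squamous tumours held Fgfr2 within a narrow band, with a lowest value of 8.41, a median of 8.56 and a highest of 9.11. EMT 1, EMT 2 and EMT 3 lay inside this band, and the other 3 lay below it.

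Mean Fgfr2 was 7.57 ± 1.31 over 6 EMT and 8.64 ± 0.24 over 9 Squamous tumours (± SD), for a fold change of −0.80 (SE 0.36, limma adjusted p = 0.337). The sets of arrays gave unequal values for Fgfr2, with a fold change of −0.23 within the numbered arrays and a TM difference of −3.11. A second Fgfr2 probe set had 3.98 in EMT 5 and 4.0 in EMT 6, below its lowest Squamous value of 5.88, and a fold change of −0.30 (SE 0.27).

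Fgfr3 had 7.91 in EMT 1, 6.62 in EMT 2, 7.54 in EMT 3, 5.69 in EMT 4, 5.12 in EMT 5 and 4.80 in EMT 6. In Squamous tumours its lowest value was 6.77, its median 7.49 and its highest 8.47. EMT 2, EMT 4, EMT 5 and EMT 6 lay below that range, and in EMT 5 and EMT 6 Fgfr3 was also below the lower quartile of the array. Mean Fgfr3 was 6.28 ± 1.28 over 6 EMT and 7.48 ± 0.56 over 9 Squamous tumours (± SD), for a fold change of −0.87 (SE 0.37, limma adjusted p = 0.312), −0.61 within the numbered arrays and a TM difference of −1.91. A second, dimmer Fgfr3 probe set gave −0.06 (SE 0.12), with EMT 5 and EMT 6 below its Squamous range and EMT 2 and EMT 4 inside it. The mean of both probe sets gave −0.47.

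Fgfr1 (chr8:25518759-25575718), an FGF receptor of mesenchymal and many other cells, had its highest values in EMT 4 and EMT 6, which were low in Fgfr2. It had 10.51 in EMT 1, 8.86 in EMT 2, 9.47 in EMT 3, 11.05 in EMT 4, 10.42 in EMT 5 and 11.16 in EMT 6. Squamous tumours had a lowest Fgfr1 value of 8.94, a median of 9.73 and a highest of 10.68. EMT 4 and EMT 6 exceeded that range, and EMT 2 lay just below it. Mean Fgfr1 was 10.24 ± 0.91 over 6 EMT and 9.79 ± 0.54 over 9 Squamous tumours (± SD), for a fold change of 0.30 (SE 0.35, limma adjusted p = 0.723), 0.23 within the numbered arrays and a TM difference of 0.56. Without EMT 4 the Fgfr1 fold change was 0.04. A second Fgfr1 probe set gave 0.37 (SE 0.35), with EMT 4, EMT 5 and EMT 6 above its Squamous range and EMT 2 below it. Fgfr4, another FGF receptor kinase, lay between 5.73 and 6.08 in EMT and between 5.73 and 6.33 in Squamous tumours, a fold change of −0.11 (SE 0.06). Both lowest values are 1 value that the 3 TM arrays (EMT 5, EMT 6 and Squamous 9) shared.

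Among FGF ligands, Fgf7, a stromal ligand of epithelial Fgfr2, was 9.38 in EMT 1 against a highest Squamous value of 7.90, and the 5 other EMT tumours lay between 6.05 and 6.94. Fgf18 topped the ligand list at 0.40 (SE 0.25), although it lay below the lower quartile in 14 of 17 tumours. It was 4.32 in EMT 1, below the Squamous range of 4.60 to 4.94, and 5.38, 4.99, 7.13 and 5.76 in EMT 2, EMT 4, EMT 5 and EMT 6, above it. Fgf2 and Fgf10 lay below the lower quartile of the array in all 17 tumours, where a difference is hard to read. Fgf1 had a fold change of 0.06 (SE 0.21). Of the 21 receptor ligands listed, 0 passed the limma adjusted threshold, 9 had positive and 12 had negative fold changes, and the median was −0.03.

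Genes known as outputs of FGF receptor signalling had mostly positive fold changes. Of 9 measured output and feedback genes, 8 had a positive fold change, beside 6417 of 12393 genes, and the median was 0.46. Of these 9 genes 0 passed the adjusted threshold, while 5 were higher at an unadjusted limma p under 0.05, beside 8.08% of all genes. Dusp6, a phosphatase that switches off ERK, had a mean of 11.22 ± 0.57 over 6 EMT and 9.93 ± 0.78 over 9 Squamous tumours (± SD), for a fold change of 1.23 (SE 0.37, limma adjusted p = 0.211). Dusp6 had 11.40, 11.75 and 11.90 in EMT 1, EMT 2 and EMT 6, beyond the Squamous maximum of 11.14. The transcription factor genes Etv4 and Etv5 had fold changes of 0.35 (SE 0.33) and 0.63 (SE 0.28). The feedback inhibitor genes Spry4 and Il17rd had 0.08 and −0.02 and lay below the lower quartile in 15 and 17 tumours. Of 13 FGF coreceptor genes, 9 had positive and 4 negative fold changes and 0 passed. Sdc2, a heparan sulfate proteoglycan, had the largest at 1.14 (SE 0.43), and EMT 4, EMT 5 and EMT 6 had 10.50, 11.78 and 11.84, beyond the Squamous maximum of 9.36. Klb, the coreceptor for endocrine FGFs, had the lowest at −0.18 (SE 0.09).

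Axl (chr7:25756500-25788924) encodes a receptor for Gas6. It had 8.22 in EMT 1, 9.79 in EMT 2, 8.61 in EMT 3, 10.75 in EMT 4, 11.54 in EMT 5 and 11.61 in EMT 6. In Squamous tumours the lowest Axl value was 7.34, the median 9.01 and the highest 9.50. EMT 2, EMT 4, EMT 5 and EMT 6 exceeded the Squamous range, and EMT 1 and EMT 3 lay inside it. Mean Axl was 10.09 ± 1.46 over 6 EMT and 8.71 ± 0.77 over 9 Squamous tumours (± SD), for a fold change of 1.00 (SE 0.45, 95% interval 0.04 to 1.96, limma adjusted p = 0.333), 0.73 within the numbered arrays and a TM difference of 2.08. A second Axl probe set lay below the lower quartile in all 17 tumours and gave −0.16.

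The other receptors of the Axl family had negative fold changes. Mertk, with which macrophages and epithelium clear dying cells, was 7.71 in EMT 1, 6.96 in EMT 2, 7.69 in EMT 3 and 7.85 in EMT 4, all beneath the Squamous minimum of 7.99. EMT 5 and EMT 6 had 9.89 and 9.52, beyond the Squamous maximum of 9.50, and its fold change was −0.76 (SE 0.31, limma adjusted p = 0.305). The Mertk fold change was −1.14 within the numbered arrays, and the TM difference had the other sign at 0.77. Tyro3 had −0.19 (SE 0.12), and EMT 4, EMT 5 and EMT 6 had 6.26, 6.32 and 6.20, beneath the Squamous minimum of 6.58. The ligand genes Gas6 and Pros1 had fold changes of −0.28 (SE 0.47) and −0.50 (SE 0.32), and no EMT tumour had Gas6 outside the Squamous range of 8.50 to 11.06.

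Met (chr6:17463349-17573980), the receptor for hepatocyte growth factor, split the EMT tumours in both directions. It had 5.69 in EMT 1, 7.67 in EMT 2, 6.85 in EMT 3, 6.82 in EMT 4, 4.88 in EMT 5 and 6.74 in EMT 6. Its Squamous values had a lowest of 5.81, a median of 6.22 and a highest of 6.77. EMT 2, EMT 3 and EMT 4 lay above and EMT 1 and EMT 5 below that range, and the EMT 5 value was below the lower quartile of its array. Mean Met was 6.44 ± 0.99 over 6 EMT and 6.22 ± 0.35 over 9 Squamous tumours (± SD), for a fold change of 0.39 (SE 0.32, limma adjusted p = 0.598). It was 0.49 within the numbered arrays and 0.14 without EMT 2, and the TM difference was −0.0015.

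Mst1r (chr9:107906858-107920383), also called Ron, is the receptor for macrophage-stimulating protein and is related to Met. It had 5.62 in EMT 1, 8.54 in EMT 2, 5.49 in EMT 3, 8.0 in EMT 4, 6.62 in EMT 5 and 6.29 in EMT 6. Squamous tumours had a lowest Mst1r value of 5.13, a median of 5.72 and a highest of 7.49 in Squamous 9. EMT 2 and EMT 4 exceeded that range, and the 4 others lay inside it. Mean Mst1r was 6.76 ± 1.26 over 6 EMT and 6.02 ± 0.77 over 9 Squamous tumours (± SD), for a fold change of 0.65 (SE 0.52, limma adjusted p = 0.585). Its direction differed between the sets of arrays, with 1.07 within the numbered arrays and −1.04 on the TM arrays, and without EMT 2 the fold change was 0.16.

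The ligands of Met and Mst1r are made as inactive precursors and are cut by serine proteases. Hgf, the Met ligand, was 6.97 in EMT 6 against a highest Squamous value of 6.14, and the 5 other EMT tumours lay between 5.34 and 5.91, a fold change of 0.06 (SE 0.13). Mst1, the Mst1r ligand, had a fold change of −0.06 and lay below the lower quartile in 15 of 17 tumours. Of 11 genes for activating proteases and their inhibitors, 0 passed the limma adjusted threshold, 5 had positive and 6 had negative fold changes, and the median was −0.40. At least 3 EMT tumours lay below the Squamous range for 6 of them, beside 11% of all genes, and above it for 2, beside 15.1%. The list median was −0.16 without EMT 4 and −0.61 without EMT 3.

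St14 encodes matriptase, an epithelial protease that activates hepatocyte growth factor. It had 10.82, 10.06, 11.06, 8.24, 5.50 and 6.20 in EMT 1 to EMT 6, against 10.53 to 11.08 in Squamous tumours (fold change −1.55, SE 0.56, limma adjusted p = 0.254). Spint1 and Spint2 encode membrane inhibitors of such proteases. Spint1 was 5.05, 5.55 and 5.25 in EMT 4, EMT 5 and EMT 6, against 8.53 to 9.63 in Squamous tumours, with the lowest fold change of the list at −1.59 (SE 0.60). Spint2 was 8.34, 6.46 and 6.91 in the same tumours, against 10.77 to 12.15 in Squamous tumours (fold change −1.51, SE 0.57).

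The plasminogen activator genes had positive fold changes. Plat, the tissue plasminogen activator, had the largest at 1.35 (SE 0.39, limma adjusted p = 0.204), and EMT 2, EMT 4, EMT 5 and EMT 6 had 10.65, 11.03, 10.60 and 10.60, beyond the Squamous maximum of 9.41. Plau, the urokinase, had 5.76, 7.22 and 6.16 in EMT 2, EMT 5 and EMT 6, beyond the Squamous maximum of 5.11, and lay below the lower quartile in 14 of 17 tumours (fold change 0.76, SE 0.33). Hgfac, the activator of hepatocyte growth factor in serum, was 6.02 in EMT 2 and lay below the lower quartile in the other 16 tumours (fold change 0.43, SE 0.24).

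**Figure D3:**
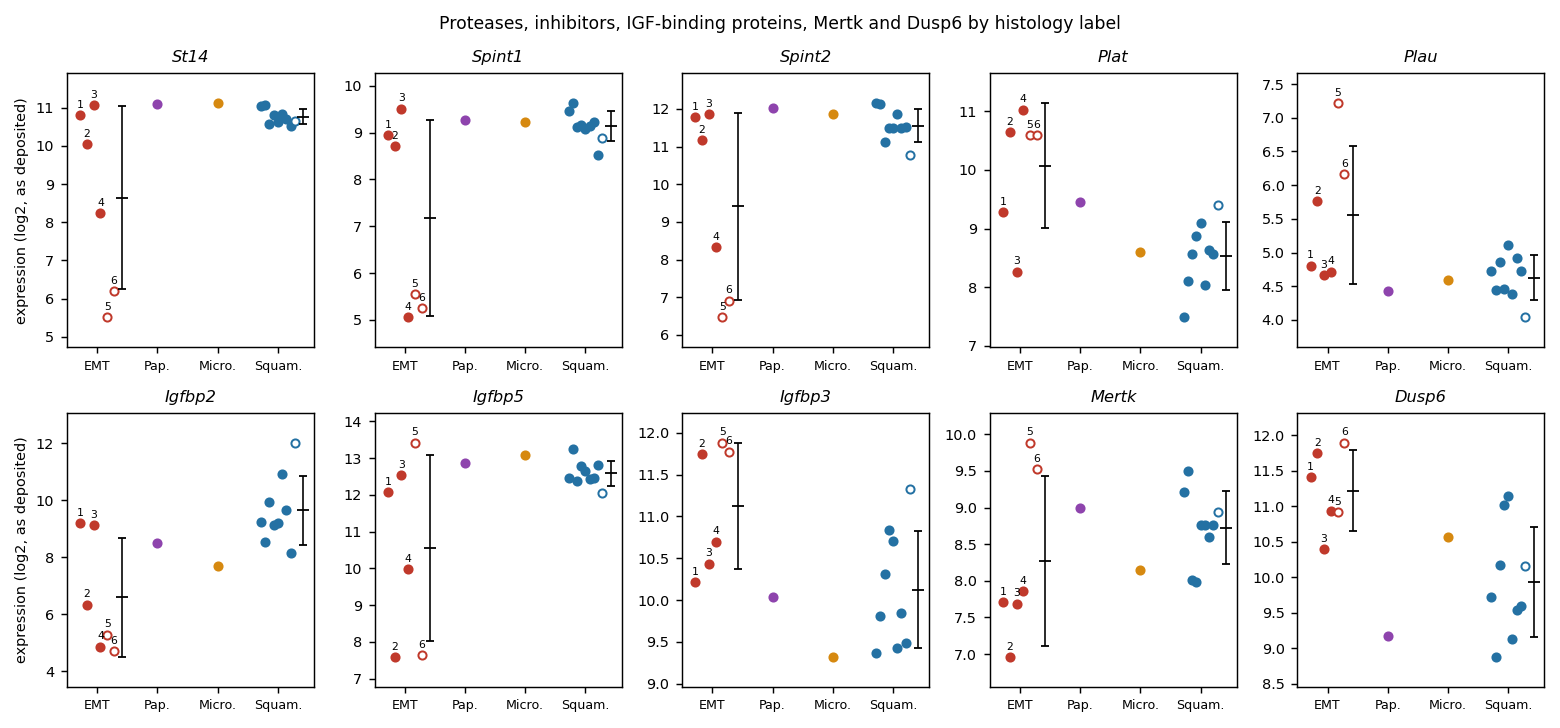
Log2 expression (vertical axis, own range per panel) of ligand-activating proteases and their inhibitors, IGF-binding proteins, Mertk and Dusp6 in EMT, Papillary, Microacinar and Squamous tumours, with open circles for TM arrays and bars for the mean ± SD. St14, Spint1 and Spint2 are below all Squamous tumours in EMT 4, EMT 5 and EMT 6, and Plat is above them in 4 of 6 EMT tumours.

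Igf1r (chr7:67952257-68233668), the receptor for the insulin-like growth factors, had the smallest SD of the 10 receptors among EMT tumours. It had 8.43 in EMT 1, 8.79 in EMT 2, 8.44 in EMT 3, 8.47 in EMT 4, 7.47 in EMT 5 and 8.84 in EMT 6. The Squamous tumours had a lowest Igf1r value of 7.24, a median of 8.14 and a highest of 8.65. EMT 2 and EMT 6 lay above the Squamous range, and EMT 5 was the lowest EMT tumour, inside that range. Mean Igf1r was 8.41 ± 0.49 over 6 EMT and 8.07 ± 0.43 over 9 Squamous tumours (± SD), for a fold change of 0.43 (SE 0.23, limma adjusted p = 0.399), 0.41 within the numbered arrays and a TM difference of 0.55. A second, dimmer Igf1r probe set gave 0.03 (SE 0.07), and the mean of both gave 0.23.

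Several genes around Igf1r had wider ranges than the receptor. Igfbp2, a binding protein that carries the growth factors, was 9.20 in EMT 1, 6.34 in EMT 2, 9.14 in EMT 3, 4.87 in EMT 4, 5.29 in EMT 5 and 4.71 in EMT 6. Its Squamous values ran from 8.14 to 12.02, and its fold change of −2.97 (SE 0.85, limma adjusted p = 0.203) was the lowest of the 11 genes listed around IGF binding. Igfbp5 had 7.59, 9.98 and 7.65 in EMT 2, EMT 4 and EMT 6 and 13.43 in EMT 5, against 12.05 to 13.26 in Squamous tumours (fold change −1.99, SE 0.85). Igfbp3 topped the list at 0.74 (SE 0.29). Of the 11 genes, 0 passed the limma adjusted threshold, 4 had positive and 7 had negative fold changes, and the median was −0.17, or −0.03 without EMT 3 and −0.37 without Squamous 1. The ligand gene Igf1 was 11.28 in EMT 4, above the highest Squamous value of 9.42, and had a fold change of 0.13 (SE 0.64). Igf2 had −0.08 (SE 0.40), with 2 EMT tumours above and 2 below the Squamous range. Insr, the insulin receptor, had 0.06 (SE 0.06) and lay below the lower quartile in 16 of 17 tumours.

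Epha2 (chr4:141301221-141329384), a receptor for ephrin-A ligands on neighbouring cells, was 8.25 in EMT 1, 9.71 in EMT 2, 7.88 in EMT 3, 9.03 in EMT 4, 7.02 in EMT 5 and 8.80 in EMT 6. Squamous tumours had a lowest Epha2 value of 6.65, a median of 7.80 and a highest of 8.81. EMT 2 and EMT 4 exceeded the Squamous range, as they did for Mst1r, and no EMT tumour lay below it. Mean Epha2 was 8.45 ± 0.94 over 6 EMT and 7.81 ± 0.78 over 9 Squamous tumours (± SD), for a fold change of 0.67 (SE 0.45, limma adjusted p = 0.517). It was 1.01 within the numbered arrays and 0.35 without EMT 2, and the TM difference had the other sign at −0.71. Its ligand gene Efna1 had a fold change of −0.17 (SE 0.23), and Efna3 had the lowest fold change of the ligand list at −0.81 (SE 0.45), with 4.03 in EMT 5 and 4.08 in EMT 6 against 6.73 to 8.45 in Squamous tumours.

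**Figure D4:**
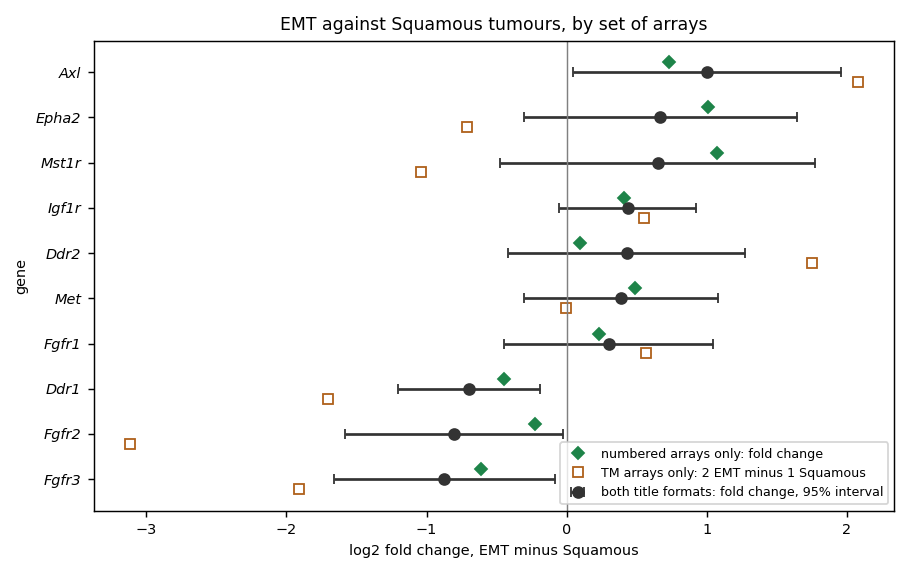
Log2 fold change of each receptor, EMT minus Squamous: filled circles with 95% intervals are from the model over both title formats, diamonds from the numbered arrays alone, and open squares are the mean of 2 EMT tumours minus the 1 Squamous tumour on TM arrays. Mst1r and Epha2 lie on opposite sides of 0 in the numbered and TM arrays.

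Of 16 measured relatives of the 10 receptors, which include the non-kinase receptors Igf2r and Fgfrl1, 4 had positive and 12 had negative fold changes, with Epha7 lowest at −0.89 (SE 0.69), Igf2r highest at 0.26 (SE 0.20) and a median of −0.10. Of 25 further receptor kinases 12 were positive and 13 negative, with a median of −0.01. The lowest was Erbb3, a partner of ERBB2, at −1.73 (SE 0.71), with 6.15, 6.42 and 6.94 in EMT 4, EMT 5 and EMT 6 against 10.26 to 11.28 in Squamous tumours. The highest was Pdgfra, a receptor of fibroblasts, at 0.77 (SE 0.60). Of 19 adaptor genes the extremes were Grb10 at 0.53 (SE 0.40) and Pik3r1, a regulatory subunit of PI3K, at −1.17 (SE 0.44). In these 3 lists 0 genes passed the limma adjusted threshold.

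Cell type markers differed between the same tumours. Cdh1, the adhesion protein of epithelium, was 11.91, 12.09, 11.84, 7.19, 8.10 and 7.04 in EMT 1 to EMT 6, against 11.13 to 11.97 in Squamous tumours. Of 15 epithelial markers 14 were measured, and 12 of these had at least 3 EMT tumours below the Squamous range, beside 11% of all genes. The log2 of their summed level ran from 10.48 to 15.72 in EMT and from 14.53 to 15.53 in Squamous tumours. EMT 4, EMT 5 and EMT 6, the tumours low in Fgfr2 and high in Ddr2 and Axl, had mean epithelial marker levels of 7.42, 6.32 and 7.19, and Squamous tumours had 10.42 to 11.34. Their log2 sums were 13.94, 10.48 and 13.27. The loss was not uniform over the list. Krt8 was 13.20, 7.35 and 12.50 in these 3 tumours, against 11.56 to 13.18 in Squamous tumours, and was the 1 marker with a positive fold change (0.05, SE 0.65).

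Fibroblast and macrophage markers were high in some of the tumours that were high in Axl and Ddr2. Mean fibroblast marker levels were 12.42 in EMT 4 and 11.94 in EMT 5, above the Squamous maximum of 11.66, and 11.29 in EMT 6. Mean macrophage marker levels were 11.89 in EMT 5 and 11.49 in EMT 6, above the Squamous maximum of 10.45, and 10.32 in EMT 4. EMT 2 lay below the Squamous range for Ddr1 and Fgfr3 and above it for Axl without such marker levels. Its means of 10.88 for epithelial, 11.15 for fibroblast and 9.25 for macrophage markers lay inside the Squamous ranges. Of 13 measured fibroblast markers 3 had at least 3 EMT tumours above the Squamous range, beside 15.1% of all genes, and the log2 sum ran from 14.71 to 16.77 in EMT and from 13.01 to 16.28 in Squamous tumours. For 13 macrophage markers the count was 2, again beside 15.1%, and the log2 sum ran from 13.65 to 16.45 in EMT and from 13.23 to 15.32 in Squamous tumours. No marker of these 3 lists lay below the lower quartile on all 17 arrays. Squamous 1 and Squamous 2 had the lowest fibroblast means among Squamous tumours, 8.55 and 8.90, and also the lowest Axl values, 7.62 and 7.34.

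Keratinocyte and milk gene markers were lower in several of the same EMT tumours. Of 9 measured basal keratinocyte markers 6 had at least 3 EMT tumours below the Squamous range, and the median fold change of the 9 was −0.80. This list averaged 7.65, 6.10 and 7.02 in EMT 4, EMT 5 and EMT 6, against 8.90 to 10.84 in Squamous tumours, and EMT 2 was above that range at 11.91. The corresponding count was 5 of 10 for differentiated keratinocyte markers (median −1.96) and 9 of 10 for milk genes of alveolar cells (median −2.55), beside 11% of all genes. Endothelial and skeletal muscle markers had medians of 0.15 and 0.74, with 1 of 10 and 0 of 10 above the Squamous range in at least 3 EMT tumours, beside 15.1% of all genes. The skeletal muscle list averaged 11.01 in EMT 4 and 5.08 to 8.62 in the other EMT tumours, against 5.18 to 9.38 in Squamous tumours. It averaged 9.84 in the Papillary and 10.35 in the Microacinar tumour. In all 8 marker lists 0 genes passed the limma adjusted threshold. The part of these cell types in the receptor results was not tested.

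**Figure D5:**
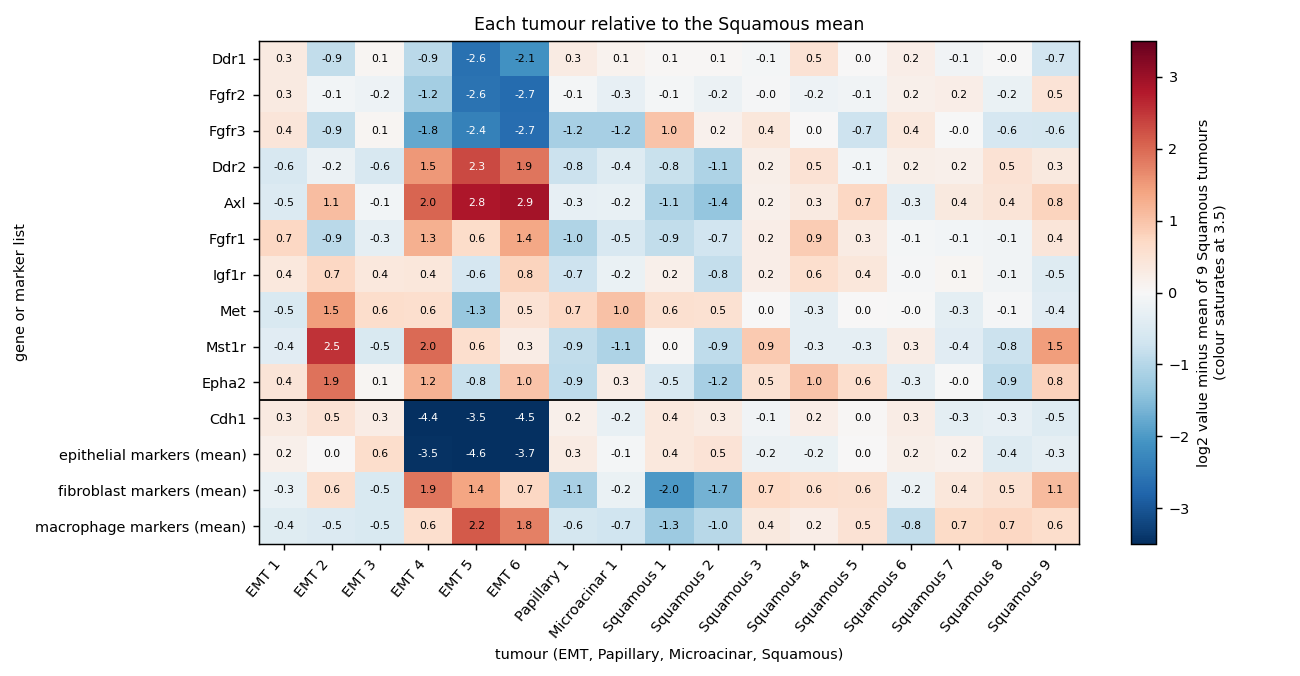
Each receptor, Cdh1 and the mean of epithelial, fibroblast and macrophage markers in the 17 tumours, as log2 value minus the mean over Squamous tumours, with the colour scale saturating at 3.5. EMT 4, EMT 5 and EMT 6 are low in Fgfr2, Fgfr3, Ddr1 and epithelial markers and high in Axl and Ddr2.

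The Papillary and Microacinar tumours, 1 each, allow no test and were set against the range of the 9 Squamous tumours. In the Papillary tumour 3 of 10 receptors lay outside that range, beside 16.5% of all genes (8.26% above and 8.26% below). Met was 6.95 in it, above the highest Squamous value of 6.77, and Fgfr1 at 8.75 and Fgfr3 at 6.32 were below the lowest Squamous values of 8.94 and 6.77. In the Microacinar tumour 4 of 10 lay outside, beside 21.1% of all genes (11.1% above and 10% below). Met was 7.25 there, above the Squamous range, and Fgfr2 at 8.36, Fgfr3 at 6.30 and Mst1r at 4.96 were below lowest Squamous values of 8.41, 6.77 and 5.13. For Mst1r both values lay below the lower quartile of their arrays. Ddr1 was 11.53 in the Papillary and 11.38 in the Microacinar tumour, inside the Squamous range.

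The genes with the most similar pattern to each receptor were taken by Pearson's r over the 17 tumours, as a description in which EMT 4, EMT 5 and EMT 6 carry much of the spread. For Fgfr2 they were Zfp185 (r = 0.96), St14 (0.95) and Notch3 (0.95), and among the 9 Squamous tumours alone these had 0.54, −0.16 and 0.18. For Ddr1 they were Ezr, St14 and Elovl7, with 0.95, 0.95 and 0.94 over 17 tumours and 0.80, 0.33 and 0.44 among Squamous tumours. For Axl they were Glud1, Cavin3 and Tgfbr2, each at 0.97 over 17 tumours, and these kept 0.98, 0.93 and 0.96 among Squamous tumours. For Ddr2 they were Pkd1, Sesn1 and Arsa, with 0.97, 0.96 and 0.96 over 17 tumours and 0.86, 0.96 and 0.91 among Squamous tumours. For Mst1r they were Fam20b, Il17rc and Nt5dc2, with 0.94, 0.85 and 0.84 over 17 tumours and 0.86, 0.92 and 0.83 among Squamous tumours. For Epha2, Phlda3, 4921524J17Rik and Col18a1 had 0.89, 0.89 and 0.88 over 17 tumours and 0.93, 0.94 and 0.89 among Squamous tumours. For Fgfr1, Nlgn2, Eps15 and Wdr82 had 0.90, 0.90 and 0.89, and 0.91, 0.80 and 0.85 among Squamous tumours. For Fgfr3, Myh14, Mark2 and Dab2ip had 0.89, 0.88 and 0.88, and 0.44, 0.77 and 0.68 among Squamous tumours. For Met, Apba3, Irf3 and Dusp7 had 0.85, 0.82 and 0.81, and 0.88, 0.86 and 0.72 among Squamous tumours. For Igf1r, Runx1, Itpr3 and Tpbg had 0.82, 0.82 and 0.77, and 0.89, 0.66 and 0.77 among Squamous tumours.

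Promoter sequence was available from RefSeq (GRCm38.p6, reference strain) for 9 of the 10 receptors, in 14 entries. The 250 bases before each start were searched on both strands for CACCTG, an E-box that Zeb and Snail factors bind, TGANTCA, the AP-1 site, and GGAATG, the TEAD site. These occur in 17.2%, 6.75% and 12.6% of 32851 promoters. A match was present in 4 entries, of Ddr1, Axl, Met and Epha2, which are shown because no other entry held one; capitals mark the matches, and none overlapped another. Ddr1 (chr17:35702045-35702294, minus strand) held CACCTG on the opposite strand, printed as CAGGTG, and TGANTCA. Axl (chr7:25788734-25788983, minus strand) held GGAATG, and Epha2 (chr4:141300971-141301220, plus strand) held it 2 times on the opposite strand, printed as CATTCC. Met (chr6:17463707-17463956, plus strand) held TGANTCA. A match describes these letters and is no evidence of binding.
Ddr1: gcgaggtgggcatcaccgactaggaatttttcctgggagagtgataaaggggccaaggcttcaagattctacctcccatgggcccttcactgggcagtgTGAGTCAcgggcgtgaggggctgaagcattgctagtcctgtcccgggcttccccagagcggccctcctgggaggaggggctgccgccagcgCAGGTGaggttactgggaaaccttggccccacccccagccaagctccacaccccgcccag
Axl: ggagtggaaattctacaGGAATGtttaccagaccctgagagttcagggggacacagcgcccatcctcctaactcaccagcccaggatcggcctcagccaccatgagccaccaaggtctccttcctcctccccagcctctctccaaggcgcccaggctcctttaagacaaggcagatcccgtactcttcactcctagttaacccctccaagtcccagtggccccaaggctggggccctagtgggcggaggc
Met: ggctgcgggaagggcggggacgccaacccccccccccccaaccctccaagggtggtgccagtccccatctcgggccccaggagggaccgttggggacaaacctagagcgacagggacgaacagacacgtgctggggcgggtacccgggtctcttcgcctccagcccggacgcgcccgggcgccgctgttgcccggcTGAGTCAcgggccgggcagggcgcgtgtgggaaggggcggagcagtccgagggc
Epha2: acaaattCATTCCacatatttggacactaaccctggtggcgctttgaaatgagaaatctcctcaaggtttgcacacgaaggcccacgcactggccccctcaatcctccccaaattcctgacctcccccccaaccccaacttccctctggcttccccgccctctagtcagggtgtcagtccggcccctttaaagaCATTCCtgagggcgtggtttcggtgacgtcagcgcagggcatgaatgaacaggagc
Zeb1, which encodes a factor that binds the E-box, was 8.04, 8.41, 8.07, 10.13, 9.78 and 10.48 in EMT 1 to EMT 6, against 7.28 to 8.97 in Squamous tumours (fold change 0.58, SE 0.37, limma adjusted p = 0.496). A link between Zeb1 and any of the receptors was not tested.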

How the data were processed

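Gene expression was measured on Affymetrix mouse arrays, 1 per tumour, in 17 tumours grouped by the histology in their labels. The values deposited by the authors are log2 expression per probe set; the background correction and normalisation that made them are not given in the sources used here, and they were used unchanged. Of 22690 probe sets, 64 were controls, 20380 had 1 gene symbol, 691 several and 1555 none in the platform annotation. Each of 12393 genes was represented by its probe set with the highest mean over the 17 arrays. EMT and Squamous tumours were compared with limma 3.58.1 (R 4.3.3), with title format as a covariate and Benjamini-Hochberg adjustment over all genes. Summaries were made with Python 3.11.15, pandas 2.3.3, numpy 2.4.6, scipy 1.17.1 and matplotlib 3.10.9. On simulated data over 12393 genes the fit recovered 44, 45, 48 and 50 of 50 genes at log2 fold changes of 1, 2, 3 and 4, with 12 false calls. The simulated noise was normal, with the same spread in EMT and Squamous tumours. In the data the EMT SD was above 2 times the Squamous SD for 5 of 10 receptors. The simulated counts therefore do not give the power to find a difference in these receptors. The receptors and gene lists were chosen with earlier results of these data known. The text names the 10 receptors, a set of ligands, proteases, binding proteins and output genes chosen by name, the largest and smallest fold change of each pathway list, and the 3 genes most correlated with each receptor among genes above the median level. The 3 TM arrays shared 2989 equal probe set values, whereas any 3 numbered arrays shared at most 1. Alternatives were leaving out each tumour, numbered arrays alone, no format term, all 17 tumours in 1 fit, quantile normalization, median centring, array weights, a trended robust fit, the mean of probe sets, other probe sets, genes above the median level, and averaging the 2 Squamous tumours that share a title number. Some labels share a number between tumours (1407 on Squamous 7 and Squamous 8, 1308 on Squamous 5 and the Microacinar tumour).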

Additional observations from a re-analysis of the deposited data

Results flagged for a closer look

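Igf1r was 7.47 in EMT 5, the lowest of the 6 EMT tumours, and stood apart from the others: its gap to the nearest EMT tumour was 0.701 of the range of the group. It was 1 of 20 such checks (10 receptors in EMT and in Squamous tumours), and chance marks about 1 in 20 groups.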

How the results depend on the processing

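With any setting, 0 of the 10 receptors passed the limma adjusted threshold, and the lowest adjusted p was 0.0849, for Ddr1 without EMT 1. The count of all genes past the threshold was 0 to 14 over the fits that left out 1 tumour, with 14 without EMT 1, none of them a receptor, and it was 0 in the other alternatives. Of 247 receptor fold changes 246 kept their sign. Ddr2 was −0.033 with array weights, and the second Axl probe set was −0.16. The count of 246 includes fits whose fold changes equal those of the main fit by construction, so their signs could not change. These are the fit of all 17 tumours, the trended robust fit and the fit of genes above the median level. Leaving out 1 tumour moved Fgfr2 between −1.06 and −0.23, Mst1r between 0.16 and 1.07 and Axl between 0.69 and 1.33. The −0.23 of Fgfr2 and 1.07 of Mst1r came from leaving out Squamous 9, the only Squamous tumour on a TM array. Without it the title format term fitted the EMT tumours on TM arrays, so both values equal those within the numbered arrays by construction. They reflect the loss of all TM arrays from the comparison, not of 1 tumour. Over the alternatives other than leaving out 1 tumour, Axl ran from 0.38 to 1.38, Fgfr3 from −1.20 to −0.44 and Ddr1 from −1.03 to −0.33. The median of the ligand-activating genes ran from −0.61 to −0.04 over fits that held the whole list. It was −1.52 in the fit of genes above the median level, which left out the dimmer genes of that list. Other list medians ran from 0.06 to 0.75 for the collagens, from −0.42 to −0.03 for the IGF-binding genes and from −0.09 to 0.26 for the FGF coreceptors. Ddr2 was 0.10 without Squamous 9, which is again the value within the numbered arrays because no Squamous tumour on a TM array was left. Fgfr3, Met and Mst1r were not in the fit of genes above the median level. No paired analysis was possible because the replicate numbers were given in accession order and only name tumours.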
